A study of Mus musculus with 6 samples.

Results

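The tubulin isotypes were followed here in ribosome-associated RNA of mPFC D2 neurons. The set holds 10 genes, namely the alpha tubulins Tuba1a, Tuba1b and Tuba4a and the beta tubulins Tubb2a, Tubb2b, Tubb3, Tubb4a, Tubb4b, Tubb5 and Tubb6. They were found by gene name in the deposited table, where they have 24 transcripts of the 115220 listed and stand for 10 of 47729 genes. The FPKM (sequenced fragments of a transcript, scaled by transcript length and by library size) of all transcripts of a gene were summed to a gene total. Since this set, with Tubb6, was drawn up with the difference between the groups already known, that difference is given below for every tubulin as a description, with its SE but no p-value. Nothing is read from how many tubulins pass a threshold.

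Both groups were adult male D2Cre/LSL-Flag-Cas9/RiboTag mice on C57BL/6, injected in the mPFC with an adeno-associated virus and dissected 3 weeks later. The 3 Ctrl libraries came from mice given AAV GFP and the 3 Gsk3sKO in mPFC D2 (Gsk3sKO) libraries from mice given AAV Gsk3sgRNA/GFP, which carries a single-guide RNA to Gsk3b. The D2Cre transgene is a bacterial artificial chromosome that drives Cre in D2 receptor-expressing cells, and Cre switches on both Cas9 and the hemagglutinin-tagged Rpl22 in them, so Ctrl cells also carried Cas9 and the tag. RiboTag immunoprecipitation pulls down the tagged ribosomes with their RNA, uninfected D2 cells of the dissected tissue included. Whether each library was 1 mouse or a pool is not given by the labels, so the p-values below measure the spread between libraries, which may be technical.

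Microtubules are hollow polymers of alpha and beta tubulin dimers, and they serve as the tracks of axonal and dendritic transport. Mammals make several isotypes of each tubulin from separate genes. The isotypes are very similar through the folded body of the protein and differ most in the acidic tail at the C terminus, where glutamate, glycine and tyrosine residues are added or removed. GSK3β phosphorylates several proteins that bind microtubules, such as tau and MAP1B. Tubulin RNA is also controlled on the ribosome, where TTC5 recognises the first residues of a nascent tubulin chain and starts the decay of its RNA when free dimers are in excess. The readout here, RNA bound to ribosomes, is the pool on which that control acts.

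The coding sequence that opens each tubulin, from which TTC5 reads the nascent chain, is shown for 9 of the 10 genes, from the GENCODE M21 transcripts on GRCm38. Each runs 5′ to 3′ for 24 bases from the start codon, with the first 4 codons in capitals.
Tuba1a: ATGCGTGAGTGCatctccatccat
Tuba1b: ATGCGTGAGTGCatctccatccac
Tuba4a: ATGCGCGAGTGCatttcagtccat
Tubb2a: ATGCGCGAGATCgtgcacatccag
Tubb2b: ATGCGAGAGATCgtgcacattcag
Tubb3: ATGAGGGAGATCgtgcacatccag
Tubb4a: ATGCGGGAAATCgtgcacctgcaa
Tubb4b: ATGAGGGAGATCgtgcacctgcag
Tubb5: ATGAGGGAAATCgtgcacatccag
The 9 openings used 7 different sets of codons. Tuba1a shared its set with Tuba1b, and Tubb3 shared its set with Tubb4b.

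The last 60 coding bases, stop codon included, encode the tail in which isotypes differ. They are shown for 7 of the genes, and they also show which genes are hard to tell apart by their reads. Capitals in Tubb2b mark the bases that differ from Tubb2a, whose coding sequence has the same length.
Tuba4a, chr1:75215622-75215681, minus strand: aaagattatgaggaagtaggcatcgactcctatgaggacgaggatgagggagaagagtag
Tubb2a, chr13:34074468-34074527, minus strand: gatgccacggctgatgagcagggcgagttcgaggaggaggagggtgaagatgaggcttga
Tubb2b, chr13:34127471-34127530, minus strand: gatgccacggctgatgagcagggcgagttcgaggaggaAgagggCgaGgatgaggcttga
Tubb3, chr8:123421623-123421682, plus strand: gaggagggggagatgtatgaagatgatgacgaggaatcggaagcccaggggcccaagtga
Tubb4a, chr17:57080690-57080749, minus strand: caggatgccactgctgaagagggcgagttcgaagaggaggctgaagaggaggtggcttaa
Tubb4b, chr2:25222308-25222367, minus strand: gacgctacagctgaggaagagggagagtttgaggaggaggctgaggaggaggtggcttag
Tubb5, chr17:35834982-35835041, minus strand: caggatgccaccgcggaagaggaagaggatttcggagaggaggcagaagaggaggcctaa
Each of these 7 stretches lies in the last exon of a transcript with 4 exons. The tails of Tubb2a and Tubb2b differed at 3 bases of the 60. The coding sequences of Tubb4a and Tubb4b differ in length, 1335 and 1338 bases, so their tails were not compared base by base.

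Over the whole coding sequence, Tuba1a and Tuba1b were 98.3% identical and Tubb2a and Tubb2b 96.5%, and the other pairs of the same family lay between 80.3% and 85.9%. Tubb6 was closest to Tubb3, at 85.9%. In windows of 75 bases, a length chosen here because the read length is not given in the sources used here, 68.2% of the Tuba1a transcript and 71.9% of the Tuba1b transcript occurred exactly in an annotated transcript of another gene. Their closest match was Tuba1c, an alpha tubulin that is not among the 10. For Tubb2a the share was 43.2%, for Tubb2b 32.2% and for Tubb4b 37.8%, in Tubb4b mostly with the pseudogene Tubb4b-ps1. Tuba4a, Tubb3, Tubb4a, Tubb5 and Tubb6 had 0 such windows. The FPKM of Tuba1a and Tuba1b, and of Tubb2a and Tubb2b, therefore rest in part on how reads were shared out between near-identical genes, and their split is uncertain. The FPKM of Tubb4b likewise rests in part on how reads were shared out, mostly with its pseudogene.

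The spacing of low FPKM values put the depth of the 6 libraries between about 23500000 and 45100000 reads. This is an estimate, since between 11.5% and 18.6% of the low values came within 0.01 reads of a whole number. Over all depths tried, the median of that share was between 1.4% and 1.9%. Gsk3b, the targeted gene, had a gene total of 35.6, 53.8 and 56.5 FPKM in Ctrl and 36.9, 37.0 and 33.6 FPKM in Gsk3sKO (limma log2 fold change -0.40, SE 0.19, unadjusted p = 0.0648), and the groups overlapped through Ctrl replicate 1. Neuronal markers were high in each library, with Snap25, a vesicle fusion protein, between 991 and 1134 FPKM. Drd2, the receptor that defines the cells, was at 1.58, 6.02 and 14.1 FPKM in Ctrl against 8.32, 5.96 and 7.28 FPKM in Gsk3sKO. Glial RNA was present as well, and the astrocyte marker Slc1a2 lay between 89.4 and 122 FPKM.

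In Ctrl libraries 9 of the 10 tubulins were abundant, with mean gene totals between 61.3 and 332 FPKM. FPKM is scaled to length, so these levels can be set beside each other. Tuba1a, the main alpha tubulin of neurons, had the highest mean, 332 ± 58.9 FPKM (SD, n = 3), and ranked 103rd among all gene totals. Tubb4a, a beta tubulin of neurons and oligodendrocytes, followed at 309 ± 10.6 FPKM (SD, n = 3), and the values of the 2 genes overlapped. Tubb2a came next at 255 ± 7.17 FPKM (SD, n = 3), and all 3 of its values lay below those of Tubb4a. Tubb4b, Tubb5, Tuba1b, Tubb3 and Tuba4a then followed with means from 231 down to 111 FPKM, and each overlapped with the next in that order. Tubb2b, a beta tubulin linked to the developing cortex, lay apart from Tuba4a at 61.3 ± 2.26 FPKM (SD, n = 3). Tubb6 ranked far below, at 0.268, 0.277 and 0.268 FPKM.

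The alpha tubulins were higher on average in Gsk3sKO than in Ctrl, Tuba4a by the most on the log2 scale and Tuba1a in FPKM, while Tubb2a, Tubb2b and Tubb4a had lower means than in Ctrl. Of the 9 gene totals that passed the filter on low values (a mean of at least 1 FPKM over the 6 libraries), 6 had a positive and 3 a negative log2 fold change, with a median of 0.14 on the scale of log2(FPKM + 1). The median of all 12874 gene totals tested was -0.06. The median of the 9 tubulins was 0.31 without Ctrl replicate 3. The tubulins were chosen from this contrast, so their gene totals are not called at a p-value threshold here.

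**Figure D1:**
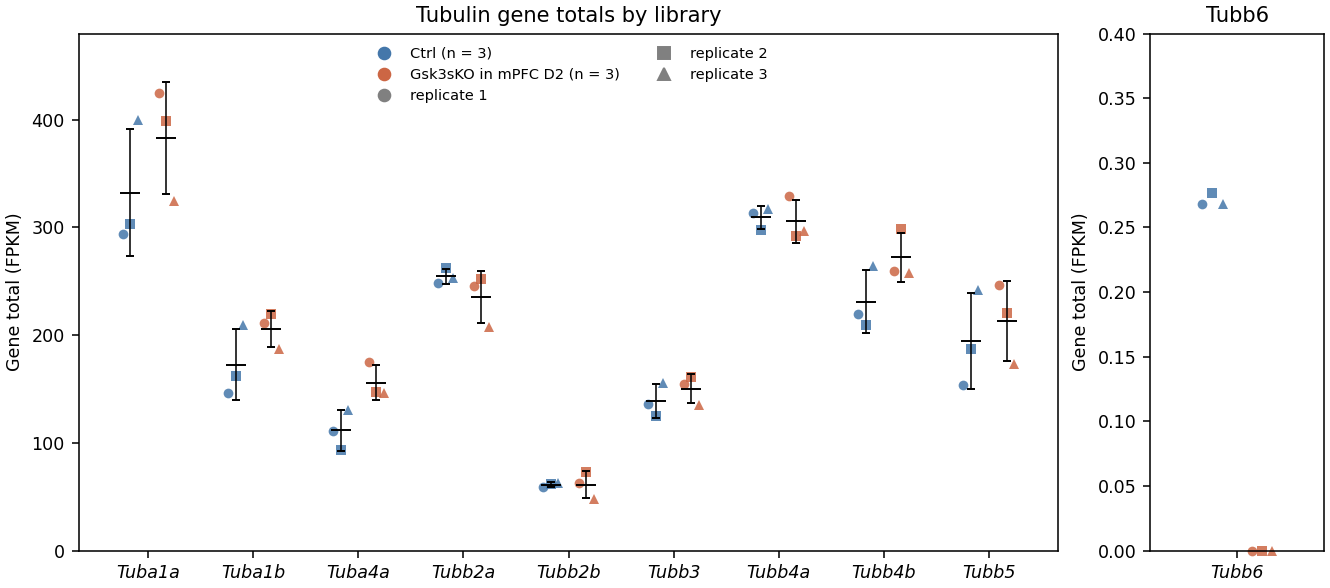
Gene total FPKM of each tubulin in the 6 libraries, on linear axes that start at 0, with Ctrl in blue, Gsk3sKO in orange and a marker shape for each replicate. Horizontal bars are means and whiskers SD (n = 3), left out for Tubb6, which is drawn on its own axis. The groups did not overlap for Tuba4a, higher in Gsk3sKO, as for 3.71% of all gene totals tested. Tubb6 was not tested. It was above 0 in every Ctrl and at 0 in every Gsk3sKO library, as for 0.573% of gene totals above 0 in any library. The groups of the other tubulins overlapped.

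Among the alpha tubulins, Tuba4a, which lacks the tyrosine at the very end of the tail that most other alpha tubulins encode, was at 111, 93.2 and 130.5 FPKM in Ctrl against 175, 147 and 146 FPKM in Gsk3sKO. Every Gsk3sKO library lay above every Ctrl library, as for 3.71% of all gene totals tested. Its log2 fold change was 0.49 (SE 0.16), and it lay between 0.37 and 0.61 over the alternatives in the closing section. Tuba1a was at 294, 303 and 400.1 FPKM in Ctrl against 425, 399 and 325 FPKM in Gsk3sKO, a log2 fold change of 0.21 (SE 0.17) that was 0.13 without Ctrl replicate 1 or Gsk3sKO replicate 1, 0.35 without Ctrl replicate 3 and 0.32 without Gsk3sKO replicate 3. Its groups overlapped because Ctrl replicate 3 was as high as the Gsk3sKO libraries and Gsk3sKO replicate 3 was the lowest of its group. Tuba1b, a widely expressed alpha tubulin, was at 146, 162 and 209.6 FPKM in Ctrl against 211, 219.7 and 187 FPKM in Gsk3sKO, a log2 fold change of 0.27 (SE 0.16) that lay between 0.16 (Ctrl replicate 1 left out) and 0.41 (Ctrl replicate 3 left out). Ctrl replicate 3 was again the highest Ctrl library and Gsk3sKO replicate 3 the lowest Gsk3sKO library. All 3 alpha genes were highest in replicate 3 within Ctrl and lowest in replicate 3 within Gsk3sKO. The summed FPKM of all transcripts was 608528, 550660 and 414548 in Ctrl against 422109, 398586 and 385795 in Gsk3sKO, so Ctrl replicate 3 was close to the Gsk3sKO libraries in that sum too, and the part of this sum in the tubulin values was not tested.

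Among the beta tubulins, Tubb4b, which is found in most tissues and in cilia, was at 219, 209 and 264 FPKM in Ctrl against 259.95, 298 and 258 FPKM in Gsk3sKO, a log2 fold change of 0.24 (SE 0.14). Ctrl replicate 3 alone lay within the range of the Gsk3sKO libraries. Tubb5, another widely expressed beta tubulin, was at 154, 187 and 242 FPKM in Ctrl against 246, 220.3 and 173 FPKM in Gsk3sKO. Its log2 fold change of 0.14 (SE 0.20) was smaller than its SE and lay between -0.01 without Ctrl replicate 1 and 0.31 without Ctrl replicate 3. Tubb3, the neuronal beta tubulin, was at 136, 124 and 156 FPKM in Ctrl against 155, 161 and 135 FPKM in Gsk3sKO, a log2 fold change of 0.12 (SE 0.14) that lay between 0.04 without Ctrl replicate 2 and 0.20 without Ctrl replicate 3. The groups of Tubb3 overlapped over most of their range.

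The remaining abundant beta tubulins had log2 fold changes below 0. Tubb2a, the beta tubulin of mature neurons, was at 248, 262 and 253 FPKM in Ctrl against 245, 252 and 208 FPKM in Gsk3sKO, a log2 fold change of -0.12 (SE 0.13). Gsk3sKO replicate 3 was the low library, and without it the value was -0.03. Tubb4a was at 314, 297 and 317 FPKM in Ctrl against 329, 292 and 296 FPKM in Gsk3sKO, a log2 fold change of -0.02 (SE 0.12) that was 0.05 after rescaling to the median ratio. Tubb2b was at 58.7, 62.2 and 63.0 FPKM in Ctrl against 62.8, 72.6 and 47.8 FPKM in Gsk3sKO, a log2 fold change of -0.03 (SE 0.17) that was 0.14 without Gsk3sKO replicate 3. The Tubb2b values spread over a wider range in Gsk3sKO than in Ctrl, on both sides of the Ctrl values.

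**Figure D2:**
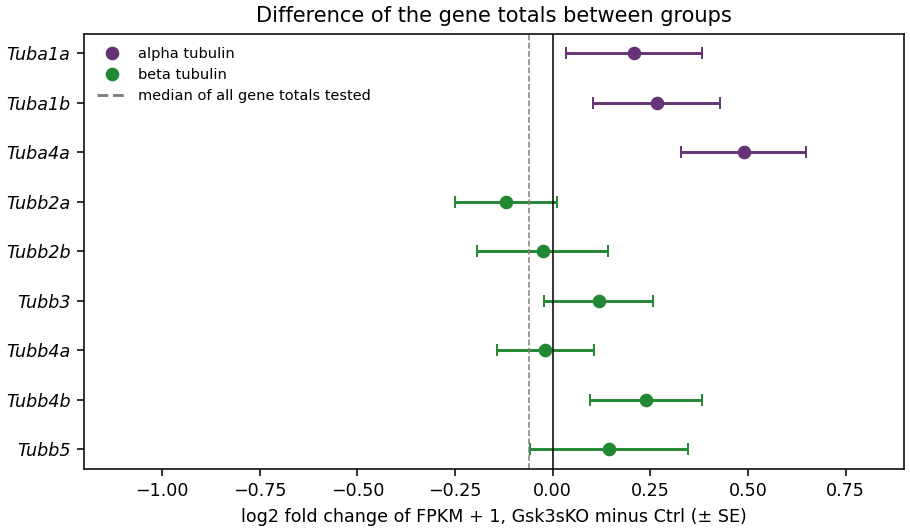
Log2 fold change of each tubulin gene total on log2(FPKM + 1), Gsk3sKO minus Ctrl, with its SE from limma as whiskers. The dashed line is the median of all gene totals tested, -0.06. The 3 alpha tubulins lie between 0.21 and 0.49 and the 6 beta tubulins shown between -0.12 and 0.24, and Tubb6 is not drawn because it did not pass the filter.

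The balance of isotypes within a library does not depend on how libraries are scaled to each other. The ratio and shares below do depend on how reads that match several genes were shared out. That is uncertain for Tuba1a, Tuba1b, Tubb2a, Tubb2b and Tubb4b. The summed FPKM of the 3 alpha tubulins per FPKM of the 7 beta tubulins was 0.488, 0.488 and 0.572 in Ctrl and 0.624, 0.591 and 0.589 in Gsk3sKO. All 3 Gsk3sKO libraries lay above the Ctrl libraries in this ratio, and the gap to Ctrl replicate 3 was small. For this ratio and for the isotype shares below, it was not counted how often groups do not overlap among other genes. Nothing is read from a lack of overlap there. The beta sum itself was 1189 ± 91.8 FPKM (SD, n = 3) for the Ctrl libraries against 1237 ± 104 FPKM (SD, n = 3) for Gsk3sKO. The alpha sum was 616 ± 107 FPKM (SD, n = 3) against 745 ± 78.3 FPKM (SD, n = 3). Both sums overlapped between the groups.

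Within the alpha sum, Tuba1a made up 53.3%, 54.3% and 54.1% in Ctrl and 52.4%, 52.1% and 49.4% in Gsk3sKO. Its share was lower in each Gsk3sKO library than in any Ctrl library, with means of 51.3% and 53.9%, a difference of -1.63 percentage points without Gsk3sKO replicate 3. Tuba4a made up 20.1%, 16.7% and 17.6% in Ctrl and 21.6%, 19.2% and 22.2% in Gsk3sKO, with an overlap through Ctrl replicate 1. The share of Tuba1b was 28.0% ± 1.26 (SD, n = 3) for the Ctrl libraries against 27.7% ± 1.47 (SD, n = 3) in Gsk3sKO.

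Within the beta sum, Tubb2a made up 22.0%, 23.0% and 19.5% in Ctrl and 18.9%, 19.5% and 18.6% in Gsk3sKO. The groups did not overlap, but Ctrl replicate 3, at 19.52%, and Gsk3sKO replicate 2, at 19.47%, were nearly the same. Tubb4b moved the other way, from 19.4%, 18.3% and 20.4% to 20.03%, 23.0% and 23.1%, with an overlap. Tubb2a was above Tubb4b in 2 of the 3 Ctrl libraries, and Tubb4b was above Tubb2a in all 3 Gsk3sKO libraries. The share of Tubb4a was 26.1% ± 1.64 (SD, n = 3) for the Ctrl libraries against 24.8% ± 2.06 (SD, n = 3) in Gsk3sKO. Tubb3, Tubb5 and Tubb2b differed by at most 0.942 percentage points between the group means, and their groups overlapped.

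**Figure D3:**
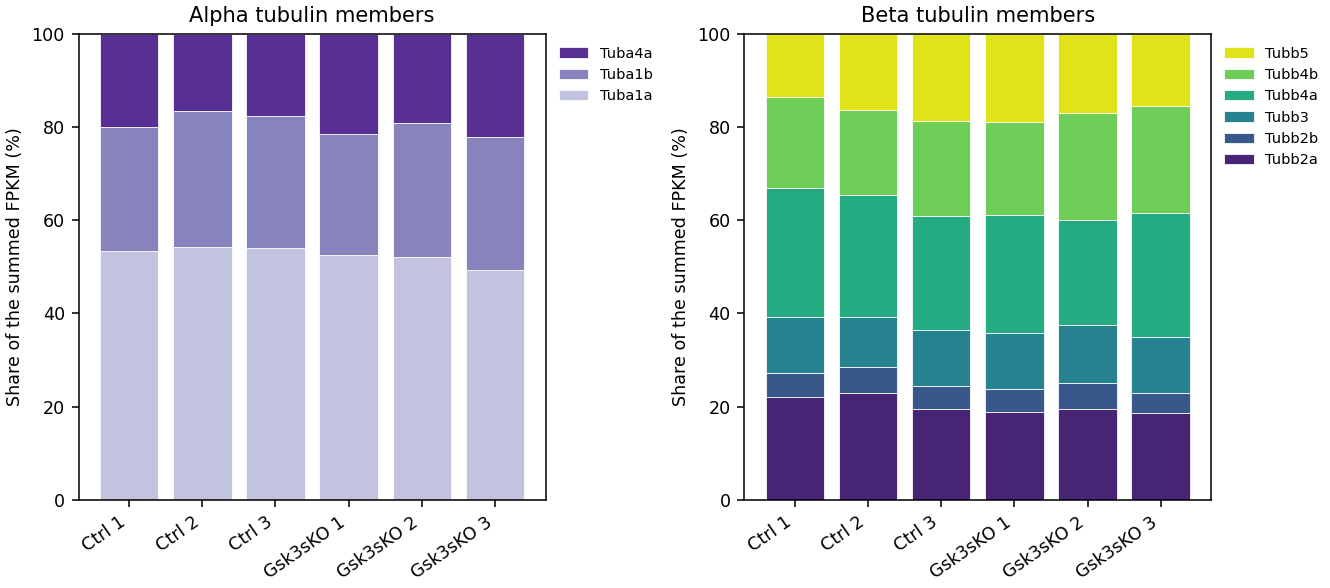
Share of each isotype in the summed FPKM of the alpha tubulins (left) and of the beta tubulins (right), in percent, for each library. The Tuba1a and Tubb2a segments are shorter in the 3 Gsk3sKO libraries than in the 3 Ctrl libraries, with means of 51.3% against 53.9% for Tuba1a and 19.0% against 21.5% for Tubb2a, and Tubb6, at most 0.0242% of the beta sum, is too small to draw.

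Tubb6 is a beta tubulin of many tissues outside the brain. It has 1 listed transcript, ENSMUST00000001513, with 4 exons and 1758 bases on chromosome 18. It was listed at 0.268, 0.277 and 0.268 FPKM in the Ctrl libraries and was at 0 in all 3 Gsk3sKO libraries. Its mean was under the filter, so it was in none of the fits with the filter, and no fold is given against a group listed at 0. At the estimated depths the Ctrl values stand for about 21.3, 15.5 and 11.1 reads, which are not whole numbers. If a listed 0 stands for 0 reads, it allows up to 3 reads, which is 0.0413, 0.0593 and 0.0567 FPKM in the Gsk3sKO libraries, all under the Ctrl values. These limits cover counting error only. The table holds no read counts, so a listed 0 may also come from the estimation of FPKM, and the limits would then not hold.

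Of 26696 gene totals above 0 in any library, 153 were like Tubb6 above 0 in every Ctrl and at 0 in every Gsk3sKO library, a share of 0.573%. The opposite pattern was seen for 20, a share of 0.0749%. In a window chosen after the Tubb6 values were seen, 26 gene totals lay between 0.2 and 0.35 FPKM in all 3 Ctrl libraries. Tubb6 was the 1 of them, 3.85%, listed at 0 in all 3 Gsk3sKO libraries, and 6 were listed at 0 in at least 1 of them. In the same window for Gsk3sKO, 23 gene totals were found and 0 were listed at 0 in all Ctrl libraries.

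The genes whose pattern was most like that of Tubb6 were Gm23297, Ighv1-85 and Jchain, with a Pearson r of 0.998, 0.992 and 0.990 over the 6 libraries on log2(FPKM + 1). Tubb6 was nearly constant within Ctrl and at 0 in Gsk3sKO, so this ranking can only pick genes lower in Gsk3sKO. The likeness is a description over 2 groups, and 118 of the gene totals tested had an r above 0.9. It does not link these genes to Tubb6. Ighv1-85 is an immunoglobulin heavy chain variable segment, at 3.25, 2.37 and 3.08 FPKM in Ctrl against 0 in all Gsk3sKO libraries. Jchain, which joins the chains of secreted antibodies, was at 4.51, 4.94 and 4.69 FPKM in Ctrl against 0.418, 0.328 and 0 FPKM in Gsk3sKO. Gm23297 was at 3.32, 3.34 and 2.68 FPKM in Ctrl against 0 in all Gsk3sKO libraries.

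The tested plasma and B cell markers, and some markers of microglia and oligodendrocytes, were lower in Gsk3sKO. The marker lists were drawn up with earlier results of these data known. Jchain, on the plasma and B cell list, was also picked above for its likeness to Tubb6. The counts and p-values of these lists are therefore a description, and nothing is read from how many markers pass a threshold. All 4 tested markers of plasma and B cells of 6 listed were lower in Gsk3sKO at an unadjusted limma p under 0.05, 2 of them (Igkc and Ighg2c) at a Benjamini-Hochberg adjusted limma p under 0.05, beside 5.20% of all gene totals lower at the first threshold and 0.0466% called in either direction at the second. No gene total passed the adjusted threshold at a pseudocount of 5, without a filter, at a mean of at least 5 FPKM, with the replicate block or without any 1 Gsk3sKO library, so both adjusted calls were lost there. The summed level of the 6 listed was 58.7 to 104 FPKM in Ctrl and 14.7 to 17.8 FPKM in Gsk3sKO, with Mzb1 at 0 in each library and Cd79a at 0 in each but 1 Ctrl library. Of 8 tested microglia markers, 2 (C1qa and C1qb) were lower at the unadjusted threshold, and the summed level of the 9 listed was 41.4 to 53.9 FPKM in Ctrl and 31.3 to 40.5 FPKM in Gsk3sKO. Of 9 oligodendrocyte markers, 4 (Mog, Mag, Cnp and Cldn11) were lower, while the summed level overlapped, at 136 to 206 FPKM in Ctrl and 148 to 189 FPKM in Gsk3sKO. Markers of astrocytes (158 to 194 against 159 to 209 FPKM) and of endothelial and mural cells (35.1 to 106 against 36.1 to 89.8 FPKM) overlapped, with 0 of 9 tested called in each list at an unadjusted limma p under 0.05. For precursors of oligodendrocytes, 0 of 3 were called, at 7.54 to 14.6 against 7.20 to 7.89 FPKM. The neuronal list was at 2288 to 2402 FPKM in Ctrl and 2252 to 2444 FPKM in Gsk3sKO, with 0 of 8 called. The part of these other cells in the Tubb6 values, or in those of the other tubulins, was not tested. In such samples fewer cells of a type and less RNA per cell cannot be told apart.

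Of the 10 tubulins, 5 have 1 listed transcript, and for the others the gene total was split between transcripts. Of the 24 transcripts 23 were above 0 in any library and 14 passed the filter. At an unadjusted limma p under 0.05, 0 of these 14 were called, beside 5.56% of all transcripts tested, and nothing is read from that count. In Tuba1a, Tuba1b and Tubb4b, 1 transcript carried at least 94.4% of the gene total in each library.

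The Tuba4a total was divided between transcripts in a way that changed from library to library within a group. ENSMUST00000186213, the transcript of 2840 bases with the whole coding sequence, was at 36.3, 25.5 and 30.0 FPKM in Ctrl against 39.2, 50.1 and 24.7 FPKM in Gsk3sKO. The shorter ENSMUST00000186971, of 845 bases, was at 33.1, 55.2 and 93.7 FPKM in Ctrl against 86.9, 87.6 and 60.1 FPKM in Gsk3sKO. ENSMUST00000188593, of 1205 bases, was at 40.3, 11.2 and 5.66 FPKM in Ctrl against 48.1, 4.84 and 59.3 FPKM in Gsk3sKO. The groups overlapped for each of the 3, so the gap between the groups was seen in their sum and not in any of them. Their log2 fold changes were 0.26 (SE 0.29), 0.46 (SE 0.38) and 0.79 (SE 1.07).

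In Tubb5, ENSMUST00000001566, of 2649 bases, was at 154, 184 and 173 FPKM in Ctrl against 182, 220.1 and 122 FPKM in Gsk3sKO. The second Tubb5 transcript, ENSMUST00000134978, of 762 bases, was at 0, 0.963 and 68.3 FPKM in Ctrl against 64.3, 0.0374 and 50.3 FPKM in Gsk3sKO. It was thus either near 0 or above 50 FPKM, and both states occurred in both groups. It made up 28.2%, 26.1% and 29.0% of the gene total in the 3 libraries where it was high, Ctrl replicate 3 and Gsk3sKO replicates 1 and 3. The log2 fold change of ENSMUST00000001566 was 0.002 (SE 0.23) and that of ENSMUST00000134978 was 1.56 (SE 2.17), beside 0.14 for the gene total.

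**Figure D4:**
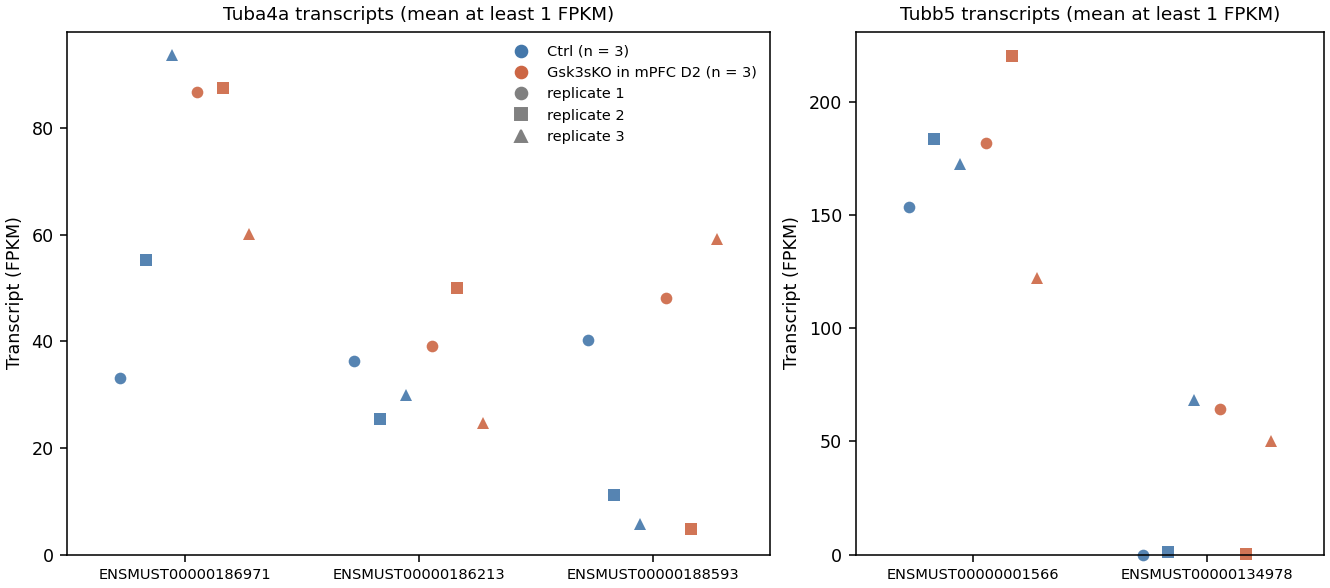
FPKM of the Tuba4a transcripts (left) and Tubb5 transcripts (right) with a mean of at least 1 FPKM, on linear axes that start at 0, for the 3 Ctrl (blue) and 3 Gsk3sKO (orange) libraries. The Tubb5 transcript ENSMUST00000134978 is below 1 FPKM in 3 libraries and between 50.3 and 68.3 FPKM in the other 3.

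Tuba1a had 2 minor transcripts that passed the filter. ENSMUST00000134214 spans chr15:98932137-98953551, from within Tuba1b to Tuba1a, and GENCODE M21 gives it to another gene, Gm49450. It was at 1.61, 0.827 and 5.59 FPKM in Ctrl against 3.65, 4.18 and 1.18 FPKM in Gsk3sKO. ENSMUST00000136329, which was not found in GENCODE M21, was at 5.46, 2.90 and 16.7 FPKM in Ctrl against 3.25, 3.64 and 0.555 FPKM in Gsk3sKO. Both overlapped between the groups and were highest, within Ctrl, in replicate 3.

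Genes that act on tubulin, and 10 other tubulin genes, were counted in 6 lists of 76 genes, of which 59 passed the filter. At an unadjusted limma p under 0.05, 2 were higher and 1 lower in Gsk3sKO, 3 of 59 or 5.08%, beside 6.56% of all gene totals tested (1.36% higher and 5.20% lower). With Benjamini-Hochberg adjustment limma called 0 of them. The median log2 fold change of the 59 was 0.01.

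The stathmins bind free tubulin dimers and keep them from the polymer. Stmn1 was at 541, 597 and 415 FPKM in Ctrl against 714, 675 and 687 FPKM in Gsk3sKO. It was higher in each Gsk3sKO library than in any Ctrl library, as for 3.71% of all gene totals tested. Its log2 fold change was 0.43 (SE 0.17, limma unadjusted p = 0.0306, adjusted p = 0.736), or 0.28 without Ctrl replicate 3. It was no longer called without Ctrl replicate 3, without any 1 of the Gsk3sKO libraries, without the filter or without the variance trend. Stmn3, the other of the 2 most abundant stathmins, was at 366, 357 and 359 FPKM in Ctrl against 393, 404 and 347 FPKM in Gsk3sKO. Of the 4 stathmins tested, 1 was higher and 0 lower at that threshold, and the median log2 fold change was 0.07.

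Of 21 genes of tubulin folding (prefoldin, the chaperonin CCT and the tubulin cofactors), all of which passed the filter, 1 was lower and 0 higher, with a median log2 fold change of -0.05. Arl2, a small GTPase that works with the tubulin cofactors, was at 18.9, 19.8 and 18.5 FPKM in Ctrl against 17.7, 11.7 and 8.89 FPKM in Gsk3sKO. Its log2 fold change was -0.59 (SE 0.24, limma unadjusted p = 0.0355, adjusted p = 0.745), or -0.38 without Gsk3sKO replicate 3, and it was no longer called without any 1 of 5 of the libraries, all except Gsk3sKO replicate 1, or without the variance trend. The most abundant were the chaperonin subunits Tcp1, at 122, 161 and 214 FPKM in Ctrl and 215, 226 and 199.7 FPKM in Gsk3sKO, and Cct7, with a log2 fold change of 0.02 (SE 0.14). For Tcp1 the log2 fold change was 0.40 (SE 0.20, limma unadjusted p = 0.0794), and Ctrl replicate 3 lay among the Gsk3sKO libraries.

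Of 30 genes for the enzymes that modify tubulin, 20 passed the filter, 1 was higher and 0 lower, and the median log2 fold change was -0.02. Svbp, the partner of the vasohibins that remove the last tyrosine of alpha tubulin, was at 0, 0.904 and 0 FPKM in Ctrl against 2.98, 1.14 and 3.48 FPKM in Gsk3sKO (limma unadjusted p = 0.00905, adjusted p = 0.651). Its low level and the 2 Ctrl libraries listed at 0 leave its fold change dependent on the pseudocount. Agtpbp1, which trims glutamates from the tail, was the most abundant, with a log2 fold change of 0.09 (SE 0.12), followed by the glutamylase Ttll7 at 0.46 (SE 0.30, limma unadjusted p = 0.163).

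The other lists had 0 genes called at that limma threshold. Among 3 genes of tubulin RNA decay, Scaper and Ttc5 were the most abundant. Ttc5 was at 28.7, 19.7 and 14.3 FPKM in Ctrl against 18.01, 13.2 and 16.3 FPKM in Gsk3sKO, a log2 fold change of -0.34 (SE 0.25), and that of Scaper was 0.27 (SE 0.18). Among 8 genes of the gamma-tubulin ring complex, which seeds new microtubules, 7 were tested, with a median log2 fold change of 0.17. Mzt1 and Tubgcp2 were the most abundant, with log2 fold changes of -0.40 (SE 0.32) and 0.17 (SE 0.20). Of 10 other tubulin genes, 4 were tested and 3 (Tuba3b, Tubal3 and Tubb1) were at 0 in each library. Tuba1c, the near copy of Tuba1b, was at 46.0, 48.0 and 57.1 FPKM in Ctrl against 57.9, 60.4 and 43.6 FPKM in Gsk3sKO, with the same high and low libraries as Tuba1b. Tubg2, a gamma tubulin and the second most abundant of them, had a log2 fold change of -0.09 (SE 0.19).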

How the data were processed

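RNAseq was done on RiboTag immunoprecipitates of 3 Ctrl and 3 Gsk3sKO libraries, made with a stranded total RNA kit. The authors deposited FPKM per transcript and library, and the submitters' processing notes list HISAT2 2.1.0, SAMtools 1.9, StringTie 1.3.4d and GRCm38. Their settings, and the handling of reads that match several genes, are not stated by the sources read. The authors also deposited a linear fold (a ratio), a p-value and a q-value for each transcript, which hold their own comparison and were not used. The table holds no read counts, and the depth was estimated from the spacing of values of single-transcript genes longer than 800 bases.

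FPKM was summed by gene identifier. Groups were compared with limma 3.58.1 in R 4.3.3 (2-sided, eBayes with a trend, no covariates) on log2(FPKM + 1), a scale that understates changes of low values, for 12874 gene totals and 21584 transcripts with a mean of at least 1 FPKM, with Benjamini-Hochberg adjustment over each. The tubulins, gene lists and tests were chosen with earlier results of these data known. Named genes were the 10 tubulins, the listed genes with an unadjusted p under 0.05, the 2 most abundant of each list and the 3 genes most like Tubb6. Marker genes were named as at 0 in each library, as most abundant, or after their values were seen. Data were simulated from the means of these gene totals, with SDs shuffled among genes and changes given only to the more abundant genes. At a log2 change of 1, the unadjusted limma p fell under 0.05 for 84% of 100 changed genes, and the adjusted limma p for 30%. Among unchanged genes the unadjusted limma p did so for 5.48%. Changes as small as those of the tubulins were not simulated. Transcripts were placed with GENCODE M21 on GRCm38, in which 114332 of 115220 were found. Same-numbered libraries of the 2 groups did not deviate together (correlations of -0.08 to -0.01 across genes, beside -0.03 to 0.05 for other pairs). With so few libraries this cannot exclude a pairing or a shared batch, so whether the numbers pair them is not known. Alternatives were other pseudocounts, filters, scaling, variance trend, a replicate block, and each library left out. Figures were made with matplotlib 3.10.9 in Python 3.11.15.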

Additional observations from a re-analysis of the deposited data

How the results depend on the processing

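The count of transcripts at an unadjusted limma p under 0.05, 1200, was 1917 without a filter on low values and 590 at a mean of at least 5 FPKM, where the number of transcripts tested also changed. The median log2 fold change of the tubulin gene totals, 0.14, lay between 0.094 and 0.31 with 1 library left out, the highest value being that without Ctrl replicate 3. The count of genes of the 6 tubulin lists at an unadjusted limma p under 0.05, 3, was 5 with median-ratio rescaling, 5 with a replicate block and 1 without the variance trend, and 2 to 6 with 1 library left out (5 without Ctrl replicate 3 and 6 without Gsk3sKO replicate 1). The cause was not tested. Over all gene totals the count at that threshold was 844, and 821 with a replicate block. The count at an adjusted limma p under 0.05 was 6, and 0 with the block, at a pseudocount of 5, without a filter, at a mean of at least 5 FPKM or without any 1 Gsk3sKO library. It was 3 at a pseudocount of 0.1, and with 1 Ctrl library left out it was 2 (replicate 1), 1 (replicate 2) or 21 (replicate 3). No pseudocount, scaling or filter changed the sign for 6 of the 9 tubulins, nor did leaving out 1 library. The sign changed for Tubb2b and Tubb4a with median-ratio rescaling and with 1 library left out, and for Tubb5 without Ctrl replicate 1. Summing protein-coding transcripts alone, chosen after seeing the data, changed none of the 9 signs. Svbp was under the filter at a mean of at least 5 FPKM and has no value there. Where a listed 0 stands for 0 reads, the depth allows a Tubb6 level of up to 0.0593 FPKM, and the table does not show whether it does.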
